A study of Mus musculus with 2 samples.

Results

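The phagocyte NADPH oxidase was followed through the open chromatin of 5 of its genes: Cybb, Cyba, Ncf1, Ncf4 and Rac2. Of the 28438 open regions that ATAC-seq gave for mouse monocytes, 22 belonged to these 5 genes. A region belonged to a gene when its summit lay in the gene body, or within 100 kb of the gene's transcription start with no other protein-coding start nearer. Ncf4 had 7 regions, Cybb and Rac2 had 5 each, Ncf1 had 3 and Cyba had 2. All 5 genes had an open promoter, against 46.6% of the 21853 protein-coding genes. A gene has an open promoter here when a region has any base within 1 kb of one of its protein-coding transcript starts. Where a gene had several such regions, as Rac2 did with 3, its promoter region is the one whose summit lies nearest to a start, and the others are called by number.

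The cells were primary monocytes of peripheral blood, taken from adult mice of strain C57BL/6J aged 5 to 6 weeks, with no treatment named, in 1 group of 2 biological replicates of 50000 cells each. There was no control group. Both replicates carry 1 donor identifier in the labels, which leave unsaid whether separate animals were bled, and any spread between the replicates may be technical. ATAC-seq uses the Tn5 transposase to cut and tag DNA where nucleosomes leave it exposed. Each peak carried a fold enrichment over background and a −log10 p, which are the authors' own values. The deposited lists hold no read counts, so the depth behind each value is unknown.

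The oxidase is an enzyme of professional phagocytes that passes electrons from NADPH across the membrane to oxygen and so makes superoxide, the source of the respiratory burst. Its membrane core is flavocytochrome b558, and its cytosolic subunits and a Rac GTPase join that core only when the cell is stimulated. Loss of a subunit causes chronic granulomatous disease, in which phagocytes take up microbes but fail to kill many of them. The transcription factor PU.1 and interferon regulatory factors are known regulators of several of these genes in myeloid cells. Further subunits of the complex were not analysed here.

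The labelled cell type was checked against marker genes. An open promoter was found for 9 of 10 monocyte markers, all but Ccr2, against 46.6% of all protein-coding genes. Markers of other blood cells had an open promoter less often in the series set, with 1 of 10 for neutrophils (Mmp8), 2 of 8 for B cells (Cd79b and Pax5), 1 of 8 for T cells (Cd3d) and 1 of 6 for NK cells (Prf1). The eosinophil, basophil and mast cell list had 0 of 6, the platelet list had 0 of 4, and the erythroid list had 1 of 3 (Klf1). In each replicate's looser set, from which the replicate folds below are taken, the counts were 4 of 8 for B cells, 2 of 10 for neutrophils, 2 of 6 for NK cells, 1 of 8 for T cells, 1 of 4 for platelets and 0 for the other lists. Monocyte markers had 9 of 10 there in replicate 1 and 8 of 10 in replicate 2. The share over all protein-coding genes in these looser sets was 50.5% in replicate 1 and 51.3% in replicate 2. The B cell count was near that share. Neutrophils also use the oxidase, and the part of other cells in the values below was not tested. In a bulk sample, opening in few cells and weaker opening in all of them cannot be told apart.

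Regions are numbered along each gene from 5′ to 3′, and positions are on mm10, the mouse assembly GRCm38. For each gene a stretch of its promoter region and of its strongest other region is printed, because these regions carry the counts and folds described below. The letters come from the RefSeq copy of GRCm38 and read 5′ to 3′ on the strand of the gene. Where a region covered the transcription start, only the part upstream of the start and free of annotated UTR is shown. Otherwise the 300 bases about the summit are shown. Capitals mark matches, on either strand, to GAGGAA (the purine box of PU.1), TTGCNNAA (C/EBP), TGANTCA (AP-1), TGTGGT (RUNX) and a pair of strings with a gap of any 2 bases, GAAA before GAAA (interferon regulatory factors) and GGAA before GAAA (a composite of ETS and interferon regulatory factors). A match describes letters and is not evidence of binding. The plot of summit positions sets the 22 regions along the 5 genes.

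**Figure D1:**
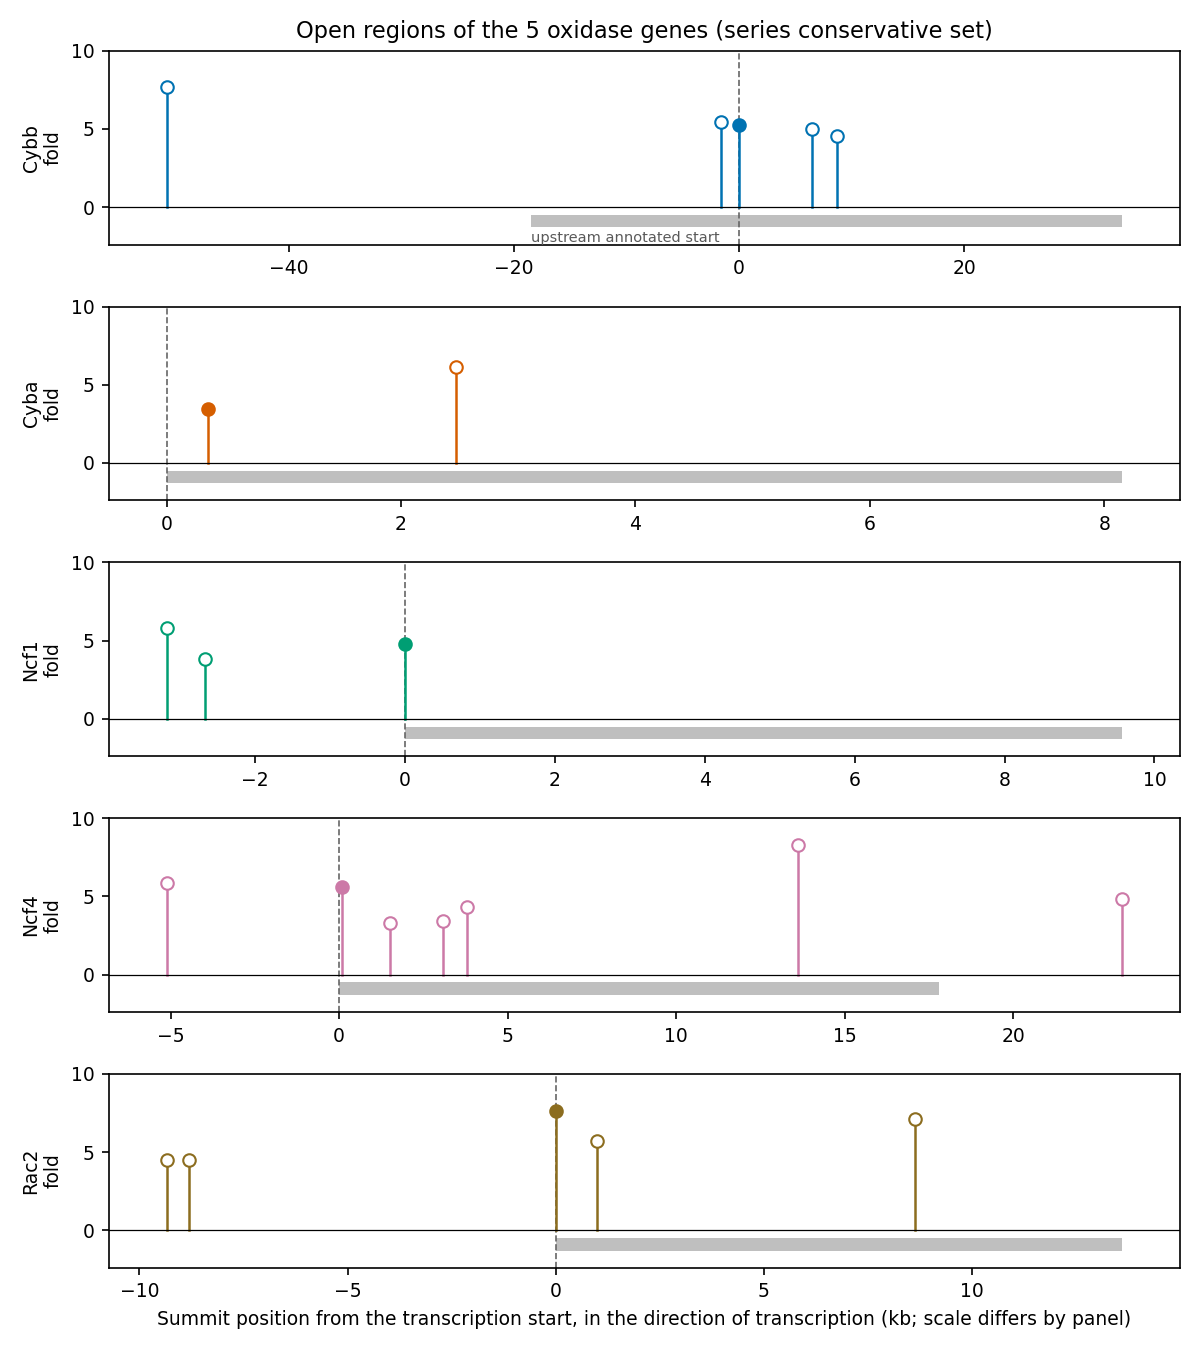
Position of each region's summit from the gene's transcription start (x axis, kb, a separate scale for each gene) against its fold enrichment in the series set made from both replicates (y axis, linear); filled circles are promoter regions, open circles other regions, grey bars gene bodies and dashed lines the start. Fold enrichments lie between 3.26 and 8.26, and in every gene except Rac2 a region away from the promoter is the strongest.

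Cybb encodes gp91phox, also called NOX2, the catalytic subunit that holds the heme and flavin groups. The gene lies on chromosome X from 9435252 to 9487771 on the minus strand. Its basic annotated transcript starts at 9469324, and a longer annotated transcript starts at 9487771. A region covered the first of these starts, whereas in none of the 8 deposited sets examined did a region lie within 1 kb of the second. The promoter region, Cybb 3, spanned chrX:9469172-9469406 with its summit 45 bp into exon 1, in the UTR, and the strongest region, Cybb 1, spanned chrX:9520042-9520312 in intergenic sequence 50.9 kb upstream. The stretches below are chrX:9469325-9469428 for Cybb 3, which ends at the base before the start, and chrX:9520030-9520329 for Cybb 1, both on the minus strand.
Cybb 3: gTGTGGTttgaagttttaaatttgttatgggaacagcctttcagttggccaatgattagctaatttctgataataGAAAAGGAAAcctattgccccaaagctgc
Cybb 1: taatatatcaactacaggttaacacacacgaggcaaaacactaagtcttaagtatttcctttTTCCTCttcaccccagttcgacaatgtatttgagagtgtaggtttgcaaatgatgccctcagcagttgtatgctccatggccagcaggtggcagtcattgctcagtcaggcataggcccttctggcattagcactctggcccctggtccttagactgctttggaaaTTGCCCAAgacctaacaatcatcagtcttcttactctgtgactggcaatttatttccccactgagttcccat
In Cybb 3 the interferon regulatory factor string began 29 bases upstream of the start and the RUNX string 103 bases upstream. The Cybb 3 window held no CpG dinucleotide.

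The promoter region of Cybb had a fold enrichment of 4.74 in replicate 1 and 4.68 in replicate 2, so the replicates were almost equal (4.71 ± 0.0427, SD, n = 2). The distant Cybb 1 reached 6.50 and 7.13, above every other Cybb region in both replicates. Its assignment to Cybb rests on protein-coding starts alone. With starts of all annotated genes, Cybb 1 was not assigned to Cybb, which kept 4 regions. Cybb 2, which lay 1634 bp upstream of the start inside the longer annotated body, had 4.65 and 5.53. Both remaining regions lay in intron 3. Cybb 4 had folds of 5.29 and 4.55, and Cybb 5 had 5.02 and 4.48. Cybb 2 to Cybb 5 therefore overlapped one another in their replicate ranges. As a share of its regions, Cybb had the fewest in the sets of each replicate alone. Each replicate's own thresholded set, the stricter of those deposited for it, held 1 of the 5 Cybb regions: Cybb 1 in replicate 1 and Cybb 2 in replicate 2. Of all 28438 regions, these sets held 16997 in replicate 1 and 17312 in replicate 2. The Cybb promoter was in neither replicate's set. This promoter was also missing from the other thresholded set of the series, which held 18 member regions against 22 in the conservative set.

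The −log10 p of the 5 Cybb regions in the series set ran from 13.2 to 27.2, below the median of 32.6 for all regions, although their folds of 4.53 to 7.68 spanned much of the range of the other members. Cyba 2, with a fold of 6.16, had a −log10 p of 72.3. Among promoter regions, those on chromosome X had a median fold of 9.32 and a median −log10 p of 46.1, against 7.58 and 51.4 on the autosomes. The Cybb promoter, at 5.28 and 19.5, was below both chromosome X medians. The labels state that sex was not collected, and its part in the chromosome X values was not tested.

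Cyba encodes p22phox, the membrane partner that stabilizes gp91phox and offers a docking site to the cytosolic subunits. The gene lies on chromosome 8 from 122424776 to 122432930 on the minus strand. Its promoter region, Cyba 1, spanned chr8:122432333-122432751, with the summit 354 bp inside the gene in intron 1, and did not cover the start. Its other region, Cyba 2, spanned chr8:122430030-122430629, also in intron 1, with the summit 2469 bp from the start. Both lie as well within the annotated body of Gm20388, a very long protein-coding model on the opposite strand. The stretches are chr8:122432426-122432725 for Cyba 1 and chr8:122430311-122430610 for Cyba 2, both on the minus strand.
Cyba 1: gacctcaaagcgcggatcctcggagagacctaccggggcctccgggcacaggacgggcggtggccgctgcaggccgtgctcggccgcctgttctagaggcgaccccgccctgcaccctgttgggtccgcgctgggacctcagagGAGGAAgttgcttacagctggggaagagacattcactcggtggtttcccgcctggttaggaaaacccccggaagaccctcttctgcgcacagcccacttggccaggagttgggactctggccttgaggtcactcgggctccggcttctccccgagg
Cyba 2: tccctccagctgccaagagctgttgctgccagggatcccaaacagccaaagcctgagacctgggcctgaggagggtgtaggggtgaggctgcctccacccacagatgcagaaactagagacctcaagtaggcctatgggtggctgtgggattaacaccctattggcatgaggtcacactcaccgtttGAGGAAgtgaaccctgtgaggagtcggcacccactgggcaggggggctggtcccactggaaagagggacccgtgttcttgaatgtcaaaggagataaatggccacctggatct
In both, the capitals begin the longer PU.1 string GAGGAAGT. Cyba 1 held 22 CpG dinucleotides in its 300-base window and Cyba 2 held 3.

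Cyba 1 was the weakest promoter of the 5 genes, with folds of 3.69 in replicate 1 and 3.22 in replicate 2 (3.46 ± 0.331, SD, n = 2). Cyba 2 had 5.86 and 6.13 (5.99 ± 0.192, SD, n = 2), so the intronic region was above the promoter in both replicates with no overlap. Cyba was the only member without a region over its start, which 42% of protein-coding genes had in the series set. Other deposited sets did cover the start. These were the looser set of each replicate, the own thresholded set of replicate 1, and the replicated and pseudoreplicated sets of the series. Replicate 1 held a single wide region at chr8:122432347-122433333 with a summit of fold 3.69 inside the gene and another of fold 3.08 located 62 bp upstream of the start. Replicate 2 held a separate region at chr8:122432836-122433188 with a fold of 2.30 and its summit 59 bp upstream. Each replicate thus had a summit just upstream of the Cyba start, weaker than its intronic summit.

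Ncf1 encodes p47phox, the organizer that is phosphorylated on stimulation and carries the cytosolic subunits to the membrane. The gene lies on chromosome 5 from 134220053 to 134229625 on the minus strand. Its promoter region, Ncf1 3, spanned chr5:134229461-134229810, with the summit 2 bp into exon 1, in the UTR. The strongest region, Ncf1 1, spanned chr5:134232609-134232988, with its summit 3177 bp upstream, and Ncf1 2 lay beside it at 2669 bp upstream. The stretches are chr5:134229626-134229810 for Ncf1 3, ending at the base before the start, and chr5:134232652-134232951 for Ncf1 1, both on the minus strand.
Ncf1 3: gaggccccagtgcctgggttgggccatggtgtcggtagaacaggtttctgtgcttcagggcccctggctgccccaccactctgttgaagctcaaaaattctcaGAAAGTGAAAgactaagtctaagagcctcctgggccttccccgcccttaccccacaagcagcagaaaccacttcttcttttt
Ncf1 1: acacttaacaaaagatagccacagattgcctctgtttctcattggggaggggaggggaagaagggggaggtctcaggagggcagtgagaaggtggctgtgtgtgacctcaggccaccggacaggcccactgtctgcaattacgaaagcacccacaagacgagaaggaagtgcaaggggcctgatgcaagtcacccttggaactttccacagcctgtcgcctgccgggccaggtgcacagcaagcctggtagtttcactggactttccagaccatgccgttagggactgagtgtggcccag
The capitals in Ncf1 3 are the string for interferon regulatory factors, 82 bases upstream of the start. Ncf1 1 held none of the 6 strings marked.

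Ncf1 3 had folds of 4.45 and 4.78 (4.61 ± 0.237, SD, n = 2). Ncf1 1 had 5.29 and 5.84 (5.57 ± 0.387, SD, n = 2), above the promoter without overlap. Ncf1 2 was lower, at 3.27 and 3.97. All 3 regions were higher in replicate 2. No other region lay in the Ncf1 body.

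Ncf4 encodes p40phox, a cytosolic subunit whose PX domain binds phosphatidylinositol 3-phosphate on phagosomes. The gene lies on chromosome 15 from 78244801 to 78262580 on the plus strand. Its promoter region, Ncf4 2, spanned chr15:78244615-78245160, with the summit 90 bp into exon 1, in the UTR. The strongest region, Ncf4 6, spanned chr15:78257165-78258729 in intron 7, with its main summit 13.6 kb from the start. The stretches are chr15:78244615-78244765 for Ncf4 2, which ends 36 bases upstream of the start, and chr15:78258270-78258569 for Ncf4 6, both on the plus strand.
Ncf4 2: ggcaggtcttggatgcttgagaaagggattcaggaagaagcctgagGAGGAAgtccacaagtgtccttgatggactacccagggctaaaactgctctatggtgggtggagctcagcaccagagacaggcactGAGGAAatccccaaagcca
Ncf4 6: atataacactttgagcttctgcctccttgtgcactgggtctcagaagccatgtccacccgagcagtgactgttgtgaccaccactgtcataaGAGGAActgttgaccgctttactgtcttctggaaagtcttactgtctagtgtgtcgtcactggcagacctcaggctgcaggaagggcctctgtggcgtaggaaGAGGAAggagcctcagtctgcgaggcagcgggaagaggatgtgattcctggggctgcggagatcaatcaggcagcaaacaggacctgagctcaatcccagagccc
Each stretch holds GAGGAA at 2 places, at 140 and 54 bases upstream of the start in Ncf4 2.

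Ncf4 6 was the strongest of the 22 regions by fold and by −log10 p, at 8.26 and 82.3 in the series set. Its folds were 8.70 in replicate 1 and 7.14 in replicate 2 (7.92 ± 1.10, SD, n = 2). It was also the widest, at 1565 bp, and joined 3 summits, the other two with folds of 4.37 and 4.28. Replicate 1 had it as 1 region of 1457 bp, and replicate 2 as 2 regions of 919 and 534 bp. The promoter Ncf4 2 had folds of 5.26 and 6.03 (5.65 ± 0.544, SD, n = 2), below Ncf4 6 in each replicate.

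The other Ncf4 regions lay on both sides of the promoter. Ncf4 1, with its summit 5117 bp upstream, had folds of 5.40 and 5.72, within the replicate range of the promoter. Intron 1 held 3 regions. Ncf4 5 had folds of 4.06 and 4.33, and Ncf4 4 had 3.94 and 2.83, the widest gap between replicates on the log2 scale among the 21 regions with both values. Ncf4 3 had a fold of 3.31 in replicate 1 and no region in replicate 2. Ncf4 7 lay 23.2 kb from the start, beyond the 3′ end of the gene, with folds of 4.64 and 4.05. The folds of the intron 1 regions were below those of the promoter in each replicate that had a value for them.

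Rac2 encodes the Rac GTPase found mainly in blood cells, which in its GTP-bound form binds the oxidase and completes the active enzyme. The gene lies on chromosome 15 from 78559167 to 78572783 on the minus strand, 296.6 kb from Ncf4. Its promoter region, Rac2 3, spanned chr15:78572489-78572975, with the summit on the first base of exon 1. Rac2 5 spanned chr15:78563989-78564401 in intron 5, within 1 kb of a second annotated start at 78564972 that it did not cover. The stretches are chr15:78572784-78572975 for Rac2 3, ending at the base before the start, and chr15:78564006-78564305 for Rac2 5, both on the minus strand.
Rac2 3: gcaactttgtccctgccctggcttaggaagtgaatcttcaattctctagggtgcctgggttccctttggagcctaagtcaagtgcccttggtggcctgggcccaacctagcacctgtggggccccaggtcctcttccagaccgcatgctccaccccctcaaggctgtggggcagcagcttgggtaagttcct
Rac2 5: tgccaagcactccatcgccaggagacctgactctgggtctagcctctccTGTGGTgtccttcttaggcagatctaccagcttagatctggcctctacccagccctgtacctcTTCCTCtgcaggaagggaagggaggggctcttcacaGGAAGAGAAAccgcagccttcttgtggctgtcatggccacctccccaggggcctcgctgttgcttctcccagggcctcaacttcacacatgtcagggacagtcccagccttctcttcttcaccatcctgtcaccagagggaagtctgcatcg
The printed part of Rac2 3 holds none of the 6 strings, and GAGGAA occurs at 2 places elsewhere in its 300-base window. Rac2 5 holds the RUNX string, GAGGAA on the other strand and the composite string.

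Rac2 3 was the strongest promoter of the 5, with folds of 6.71 in replicate 1 and 7.75 in replicate 2 (7.23 ± 0.731, SD, n = 2). Rac2 5 had 7.40 and 6.25 (6.82 ± 0.807, SD, n = 2), which overlaps the range of the promoter. Rac2 4, in intron 1 with its summit 992 bp from the start and so also within 1 kb of it, had 5.05 and 5.80, below both. Rac2 1 and Rac2 2 lay 9352 and 8801 bp upstream. Rac2 1 had folds of 3.83 and 4.41, and Rac2 2 had 4.15 and 3.96, so both were below Rac2 4 in each replicate. Rac2 2 overlapped Gm36738, a long intergenic noncoding RNA gene named here after its values were seen.

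**Figure D2:**
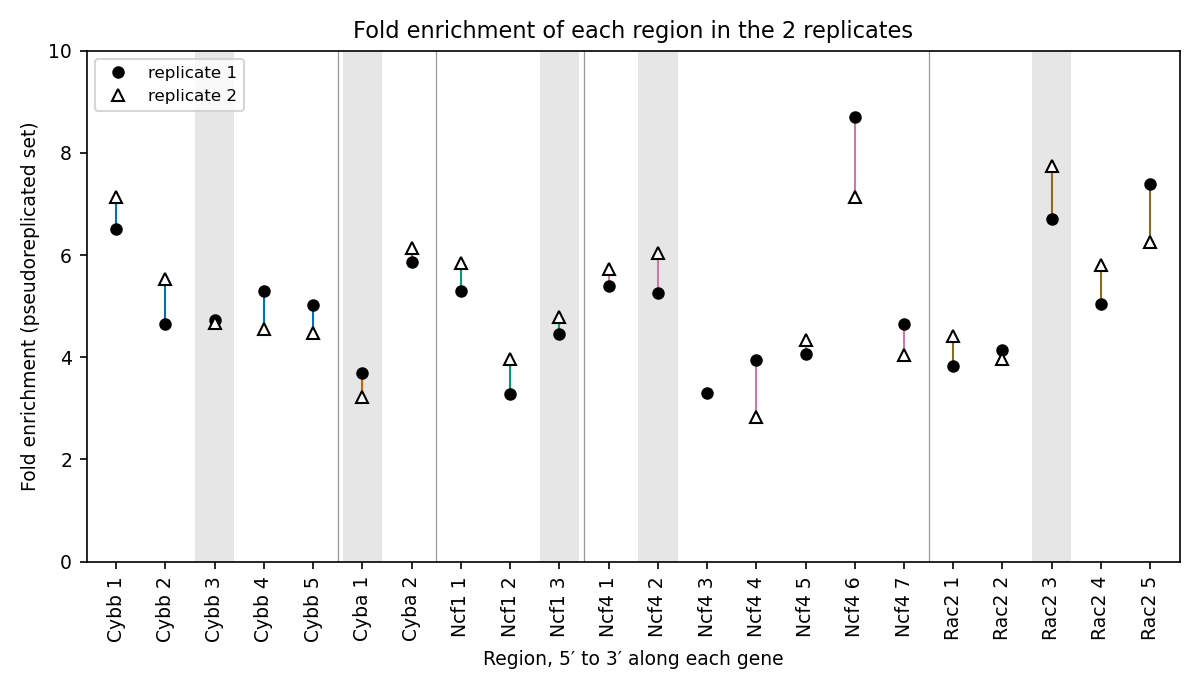
Fold enrichment (y axis, linear) of each of the 22 regions (x axis, 5′ to 3′ along each gene) in the pseudoreplicated set of replicate 1 (filled circles) and replicate 2 (open triangles); grey bands mark the promoter region of each gene and vertical lines part the genes. Ncf4 6 is highest in replicate 1 at 8.70, Rac2 3 is highest in replicate 2 at 7.75, and Ncf4 3 has a value in replicate 1 alone.

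The order of the promoters by mean replicate fold was Rac2 (7.23), Ncf4 (5.65), Cybb (4.71), Ncf1 (4.61) and Cyba (3.46). The replicate ranges of Cybb and Ncf1 overlapped, and those of the other neighbours in the order did not. Each replicate's looser set held a promoter region for all 5 genes, against 50.5% of protein-coding genes in replicate 1 and 51.3% in replicate 2. The own thresholded set of replicate 1 held 4 of the 5, against 39.3%, and that of replicate 2 held 3, against 40.7%. The membrane pair Cybb and Cyba held the third and the last place. Among the 10589 promoter regions of the series, the folds of the 5 promoters stood at the percentiles 49.8 for Rac2, 24.0 for Ncf4, 20.1 for Cybb, 13.9 for Ncf1 and 2.02 for Cyba. Among all regions, Rac2 3 stood at the percentile 66.1 by fold, and 3 of the 5 promoters were above the series median of −log10 p: Ncf4 2 (64.1), Rac2 3 (61.9) and Ncf1 3 (39.0). By strongest region the order was Ncf4 6 (7.92), Rac2 3 (7.23), Cybb 1 (6.82), Cyba 2 (5.99) and Ncf1 1 (5.57). The ranges of the first 3 overlapped between neighbours, and the others did not.

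Most of the 22 regions were below the series median in fold and in −log10 p. Their median fold was 5.14, against 6.49 for all regions, and 4 of the 22 were above the series median: Cybb 1, Ncf4 6, Rac2 3 and Rac2 5. For −log10 p the medians were 26.3 and 32.6, with 9 of 22 above the series median. Of the 22 regions 7 (the 5 promoter regions, Rac2 4 and Rac2 5) lay within 1 kb of a protein-coding start, where 37.2% of all regions lay. The other 15 had a median fold of 4.82, against 6.06 for all regions outside promoters. The members had more than 1 summit in 3 of 22 regions, against 29.9% of all regions.

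The number of regions per gene was compared with that of all protein-coding genes. At least 1 region was found for 58.2% of genes. The 7 of Ncf4 were reached or passed by 2.92% of genes, the 5 of Cybb and Rac2 by 6.33%, the 3 of Ncf1 by 16.6% and the 2 of Cyba by 31%. Long genes can hold more regions, so genes within 25% of each member's length were also counted. Among these the shares were 1.36% for Ncf4, 3.35% for Rac2, 9.31% for Cybb, 10.1% for Ncf1 and 19.4% for Cyba. The genes differed in their surroundings too. Cybb had no other protein-coding gene with a start within 100 kb of its own start. The nearest region not assigned to Cybb was 193.6 kb from that start. Cyba had 7 genes with a start that near, and the nearest region not assigned to it was 10.6 kb away.

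**Figure D3:**
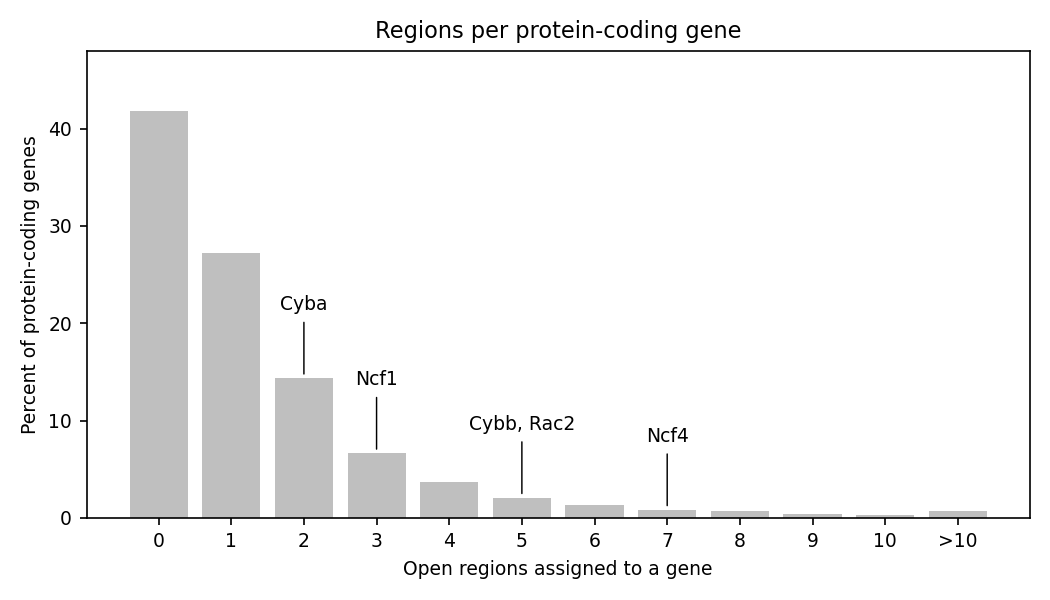
Share of the 21853 protein-coding genes (y axis, percent) by the number of open regions assigned to them (x axis); names mark the counts of the 5 oxidase genes. The largest bar, at 41.8%, is genes with 0 regions, and all 5 oxidase genes stand to its right, at 2 to 7 regions.

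The replicates were compared at each region. Of the 22 regions 21 had a value in both replicates, against 91.1% of all regions, the exception being Ncf4 3. In the replicates' own thresholded sets 10 of 22 were in both, against 50.3% of all regions. In neither were 7 of 22, against 8439 of all 28438 regions. On the log2 scale, the difference between replicates (2 minus 1) had a median of 0.08 over the 21 regions, with an SD of 0.21. Over all regions with both values these were −0.03 and 0.24. It ran from −0.48 at Ncf4 4 to 0.28 at Ncf1 2. Replicate 2 was higher at 12 regions and replicate 1 at 9. Over all regions with both values, replicate 2 was higher at 11557 and replicate 1 at 14337. With 2 replicates and no second group, no test of a difference was possible.

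**Figure D4:**
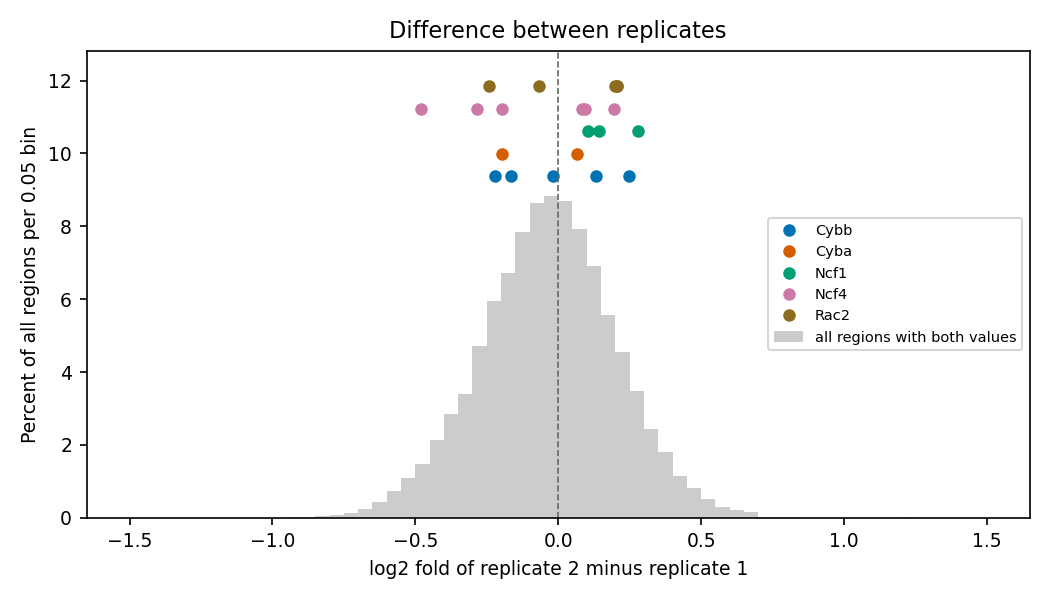
Difference between replicates as log2 fold of replicate 2 minus replicate 1 (x axis); grey bars give the share of all regions with both values per bin of 0.05 (y axis, percent), and circles the 21 oxidase gene regions, one row per gene at an arbitrary height. Every circle lies within 0.5 of 0, between −0.48 and 0.28, inside the bulk of the grey bars.

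The promoters of the 5 genes shared a low CpG content, with Cyba as the exception. The ratio of observed to expected CpG in the 300-base window was 0 for Cybb, 0.149 for Ncf4, 0.175 for Rac2 and 0.235 for Ncf1, against a median of 0.774 over all promoter regions. For Cyba it was 0.667. The GC content of these windows ran from 39.7% in Cybb to 66.3% in Cyba, around a median of 62.0% for all promoter regions.

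A set of 16 strings known for factors of myeloid cells or of promoters was searched in the 300 bases about each summit. The purine box GAGGAA was in 14 of the 22 windows (63.6%), against 40% of all windows of the series. It was in the windows of all 5 Cybb regions, both Cyba regions, 4 of 7 Ncf4 regions and 3 of 5 Rac2 regions, and in none of the 3 Ncf1 windows. Near starts it was in 5 of 7 windows, against 29.8% of promoter windows, and elsewhere in 9 of 15, against 46.1%. The longer GAGGAAGT, which contains it, was in 4 windows (9.79% of all), in Cyba 1, Cyba 2, Cybb 4 and Ncf4 2. The string CCGGAA of other ETS factors was in 3 (15.8%).

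The string of GAAA, any 2 bases and GAAA was in 3 of 22 windows (13.6%), against 4.3% of all windows: the promoters Cybb 3 and Ncf1 3 and the intronic Ncf4 4. These letters are known for interferon regulatory factors. The composite string of GGAA, any 2 bases and GAAA was also in 3 windows, against 5.42% of all, in Cybb 3, Cybb 5 and Rac2 5. TTGCNNAA was in 3 (14.3%), TGTGGT in 5 (24.4%) and TGANTCA in 2 (10.8%). These 3 strings belong to C/EBP, RUNX and AP-1 factors.

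Of the strings of general promoter factors, GGGCGG, bound by SP factors, was in 7 windows, against 31.4% of all. CACCC, bound by KLF factors, was in 19 (60.7%). CCAAT was in 5 (34.3%), TATAAA in 3 (8.42%) and TGACGT of CREB factors in 1 (8.66%). The core of the CTCF site, searched as CCA, any 2 bases, AG, any 2 bases and GGC, was in 3 (11.1%), in Cybb 1, Rac2 1 and Rac2 5. The NF-kB string, GGGA, any 2 bases and TTCC, was in 0 windows, against 1.56% of all. The E-box CACGTG was in 0, against 8.22%. Several of these strings can share bases, so their counts are not independent.

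**Figure D5:**
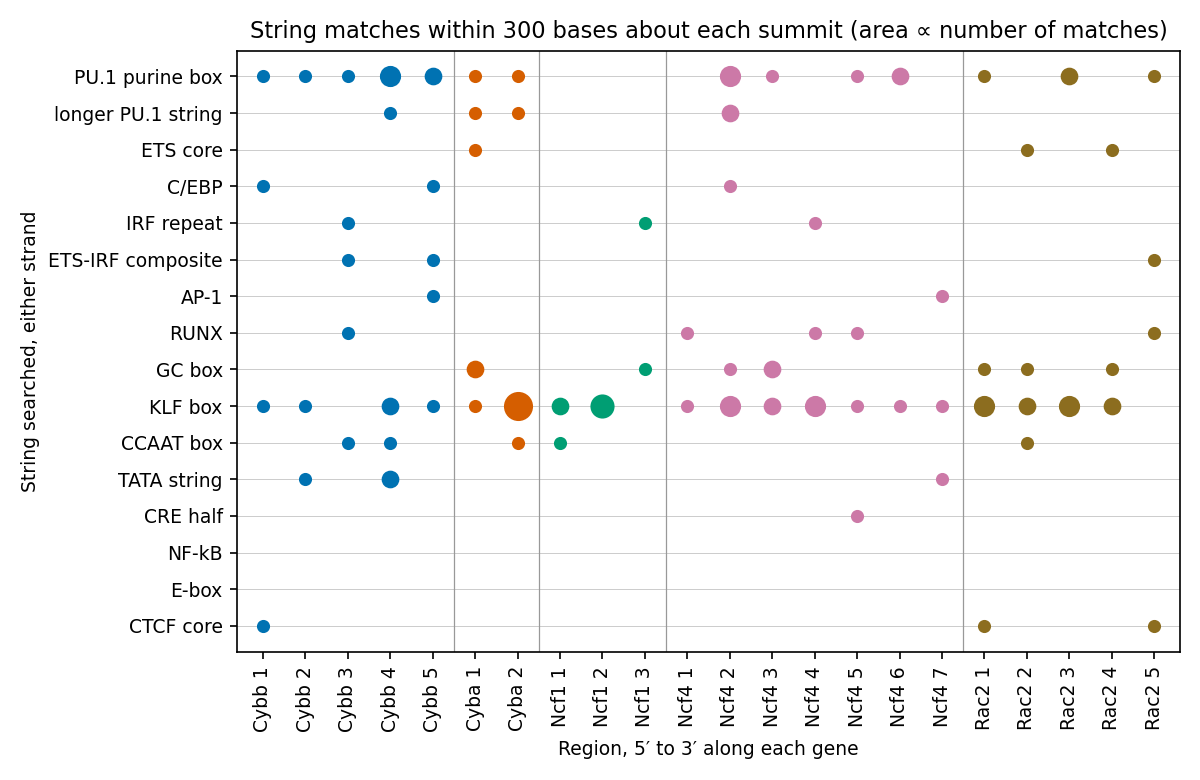
Matches to 16 strings on either strand (y axis, named by the factor or element they are known for) in the 300 bases about the summit of each region (x axis); the area of a circle is proportional to the number of matches and colours part the genes. The purine box row is filled for 14 of 22 regions and empty for the 3 Ncf1 regions, and the KLF row is filled for 19.

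Other genes of superoxide production were read in the same way, from lists of relatives, kinases and scavengers. Of 11 relatives and partners of the oxidase, 2 had an open promoter, against 46.6% of all protein-coding genes. Cybc1, which encodes a chaperone of gp91phox, had promoter folds of 6.64 and 7.07 in the replicates. Hvcn1, the proton channel that balances the charge moved by the oxidase, had 4.41 and 4.53. Both promoters were open in each replicate. The other 9 were Nox and Duox enzymes of other tissues and their partners. Of these, Noxo1 and Duoxa1, named after their values were seen, had a promoter region in each replicate's looser set and none in the series set.

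Rac1 and Rac3, relatives of Rac2 named after their values were seen, had promoter folds of 5.34 and 6.82 for Rac1 and 6.34 and 6.50 for Rac3. Rac1 had 2 regions and Rac3 had 1, against 5 for Rac2, with gene length not matched in this comparison. Of 8 kinases that act on the oxidase or its subunits, 6 had an open promoter, against the 46.6% of all protein-coding genes given above. The most regions were at Prkcd (11), a protein kinase C that phosphorylates p47phox, at Syk (8) and at Pik3cd (7). The exceptions, Prkca and Pak1, had a promoter region in each replicate's looser set.

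Among 15 genes that remove or use superoxide and peroxide or control such genes, 11 had an open promoter, against 46.6% of all protein-coding genes. The most regions were at Nfe2l2 (7), which encodes the regulator NRF2, at Hmox1 (6), heme oxygenase, and at Sod1 (5), cytosolic superoxide dismutase. The 4 without were Sod3, Prdx2, Mpo and Keap1. Of these, Keap1 had a promoter region in the looser set of replicate 1 and none in that of replicate 2.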

How the data were processed

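The data were peak lists from ATAC-seq of blood monocytes, with 2 biological replicates, on mm10 per the labels. Per the deposited README, some lists were made from 1 replicate and others from both, with a further input that it does not describe. Which aligner and peak caller were used, and whether reads were shifted for Tn5, is not given in the sources used here. For each peak the authors deposited a fold (a linear ratio to background) and a −log10 p, both valid within their list. The deposited score reflects the irreproducible discovery rate, and the thresholded sets hold none under 540.

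The 39944 peaks of the authors' conservative set were merged where they overlapped, taking the largest fold, and the summit with the smallest p. Values in a replicate are the highest fold among overlapping regions of its looser, pseudoreplicated set. Gene models were GENCODE M21 and letters RefSeq's GRCm38.p6. A gene's start is the most upstream one of its basic coding transcripts. The RefSeq promoter table holds 3 of the 5 genes and was not printed. Printed stretches follow the design's 300-base window less UTR, except that regions over a start show the part upstream of it. Strings were matched exactly. No test was run, since there is 1 group. The code was tested on simulated peaks. Scripts ran in Python 3.11.15 with pandas 2.3.3, numpy 2.4.6 and, for the plots, matplotlib 3.10.9.

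The members, gene lists and strings were chosen with earlier results of these data known. Named genes are the 5 members, protein-coding genes whose start is within 1 kb of a member region or whose body overlaps one, and, of each list, the 3 genes with most regions and those without an open promoter where these are 5 or fewer. Of the listed marker genes, 1 was not annotated under its listed name and was left out, and 1 gene list is not reported here. Other peak sets, distances, merging rules, overlaps and windows were tried as alternatives.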

Additional observations from a re-analysis of the deposited data

How the results depend on the processing

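The count of member regions, 22 in the conservative set of the series, depended on the peak set. It was 14 at a stricter IDR of 0.01, and 11 to 14 in the own thresholded set of 1 replicate, with the other left out. The other thresholded set of the series gave 18, the replicated set 30 and the pseudoreplicated set 31. The number of members with an open promoter, 5 in the main set, was 3 without replicate 1 (the promoters of Cybb and Cyba being lost) and 4 without replicate 2 (Cybb). Values in both replicates fell from 21 regions to 10 when taken from the replicates' own thresholded sets. Counting gene bodies alone gave 15 regions, and starts of all annotated genes gave 19. The regions lost with starts of all annotated genes were Cybb 1, the strongest of Cybb, and Rac2 1 and Rac2 2. The purine box count remained 14 in windows of 200 bases and in whole regions, where 32.9% and 52% of all regions held it. Of the counts and values for single members and strings under the alternatives, 160 stayed close to the main value and 27 moved. A fold was called close within the replicate SD, and a count within a fixed ratio. Folds of regions absent under an alternative, such as a lost promoter, entered neither number. Several alternatives read the same peaks again, so their folds could hardly move. These numbers therefore do not measure how stable the results are. The causes of the moves were not tested.

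Depth is unknown without read counts, so a region missing from a set was not detected there, which does not show that it was closed. No paired analysis was possible because there is 1 group.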
